A study of Mus musculus with 16 samples.

Results

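Voltage-gated ion channel genes were followed in a comparison of histone H3 lysine 9 beta-hydroxybutyrylation between fasted and fed mice. The members were the protein-coding genes of the mm10 RefSeq annotation whose symbol starts with Kcn, with Scn followed by digits and a letter, with Cacna, Cacnb or Cacng, or with Hcn followed by a digit. They numbered 138 of 21887 protein-coding genes with a position on the assembled nuclear chromosomes. Chromatin carrying the mark, whose acyl group comes from the ketone body beta-hydroxybutyrate, was immunoprecipitated and sequenced from occipital cortex. The mice were of the strain C57BL/6J, at postnatal day 35, and had either gone without food for 48 h or been fed ad libitum. The labels describe 4 immunoprecipitated and 4 input libraries for each feeding state, 16 in all, and name no transgene or other treatment. The values analysed here are the authors' list of 8404 regions enriched in fasted mice, each with a log likelihood ratio (log-LR), and their list of 1 region enriched in ad libitum mice. Neither list gives values for single libraries. The depth is therefore unknown, no spread between mice and no test between feeding states could be had, and counts are given beside the same counts over all protein-coding genes. In a bulk tissue, fewer cells that carry a mark and less of it per cell cannot be told apart. Of the tissue's marker genes, 1 of 10 for cortical neurons (Syt1) and 1 of 4 for oligodendrocytes (Mbp) had a fasting-enriched region within 1 kb of a gene end. The share of all protein-coding genes was 11.9%. With gene bodies counted too, 3 of 10 neuron markers had a region (also Rbfox3 and Stmn2) and still 1 of 4 for oligodendrocytes, against 18.1% of all protein-coding genes. Astrocyte, microglia and endothelium markers (4 each) and the 8 markers of tissues outside the dissection had 0 at either position, in lists too short to set against those shares. A region at a marker does not measure how many of its cells were present.

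Most voltage-gated channels open when the membrane depolarizes and let sodium, calcium or potassium ions through a pore. Sodium channels start and carry the action potential, calcium channels couple it to transmitter release and signalling, and potassium and HCN channels set its end, its rhythm and the resting potential. Most are built from pore-forming alpha subunits that work with auxiliary subunits. The symbol rule also takes in genes that fit the name less well. The Kcnj inward rectifiers, the Kcnk leak channels and the ion-activated potassium channels are opened mainly or partly by other signals, and several Cacng genes encode auxiliary subunits of AMPA-type glutamate receptors. These 3 potassium classes held 41 of the 138 members.

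Promoter sequences of members with a fasting-enriched region are shown first, because the position of a region against an annotated start is the most detailed readout the lists give. RefSeq's promoter table for GRCm38.p6, the build called mm10, holds 250 bases before to 50 after annotated starts, and 101 of the 138 members have at least 1 entry. At 2 members a region overlapped such a window, and capitals mark the bases that lie inside the region. All sequences are written 5′ to 3′ on the gene's strand.
Cacnb3, chr15:98634517-98634816, plus strand: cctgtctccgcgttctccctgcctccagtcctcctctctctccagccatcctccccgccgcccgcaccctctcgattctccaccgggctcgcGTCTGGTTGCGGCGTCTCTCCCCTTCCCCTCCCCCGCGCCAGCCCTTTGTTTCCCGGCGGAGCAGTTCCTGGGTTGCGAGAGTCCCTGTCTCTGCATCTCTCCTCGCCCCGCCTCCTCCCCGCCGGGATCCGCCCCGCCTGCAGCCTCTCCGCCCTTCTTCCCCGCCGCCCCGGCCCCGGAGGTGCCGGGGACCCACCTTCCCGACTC
Kcnma1, chr14:24004156-24004455, minus strand: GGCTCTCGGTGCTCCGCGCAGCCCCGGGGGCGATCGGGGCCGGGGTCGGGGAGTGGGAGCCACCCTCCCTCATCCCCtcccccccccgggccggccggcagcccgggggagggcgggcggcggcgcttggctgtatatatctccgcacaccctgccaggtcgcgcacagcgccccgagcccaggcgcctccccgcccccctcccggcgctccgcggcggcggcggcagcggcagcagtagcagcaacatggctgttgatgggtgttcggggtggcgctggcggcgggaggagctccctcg
Cacnb3 encodes a cytoplasmic beta subunit of calcium channels. Its region, at chr15:98634609-98634882, covered 208 bases of the window and was centred 22 bp before the annotated start, at a log-LR of 10.1. This start lies inside the gene, and the region is 6173 bp from the nearest gene end. Kcnma1 encodes the pore of the large-conductance, calcium-activated potassium channel. Its region, at chr14:24004379-24004621, covered the first 77 bases of the window and ended 174 bp before the start, at a log-LR of 4.68. The Cacnb3 window holds 29 CpG dinucleotides and the Kcnma1 window 36.

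At 6 more members a region lay within 1 kb of an annotated start without touching the window. Capitals mark CpG dinucleotides in 5 of these promoters, chosen as the 4 members that also have the region at a gene end and Kcnc2 as the one with the fewest CpG dinucleotides.
Kcnd2, chr6:21215096-21215395, plus strand: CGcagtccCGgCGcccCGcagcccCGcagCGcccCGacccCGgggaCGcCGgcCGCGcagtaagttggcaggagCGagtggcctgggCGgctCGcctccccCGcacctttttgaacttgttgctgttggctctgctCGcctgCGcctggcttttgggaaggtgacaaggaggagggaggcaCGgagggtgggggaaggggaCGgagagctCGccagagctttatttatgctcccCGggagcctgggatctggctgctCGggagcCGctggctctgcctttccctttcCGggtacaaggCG
Kcnd3, chr3:105451640-105451939, plus strand: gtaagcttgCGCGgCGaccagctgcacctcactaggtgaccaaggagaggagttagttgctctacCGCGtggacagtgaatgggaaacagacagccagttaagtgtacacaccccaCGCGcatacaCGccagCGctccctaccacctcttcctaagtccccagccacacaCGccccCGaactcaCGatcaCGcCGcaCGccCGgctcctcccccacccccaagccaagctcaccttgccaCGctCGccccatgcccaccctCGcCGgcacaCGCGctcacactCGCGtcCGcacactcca
Kcnab2, chr4:152477500-152477799, minus strand: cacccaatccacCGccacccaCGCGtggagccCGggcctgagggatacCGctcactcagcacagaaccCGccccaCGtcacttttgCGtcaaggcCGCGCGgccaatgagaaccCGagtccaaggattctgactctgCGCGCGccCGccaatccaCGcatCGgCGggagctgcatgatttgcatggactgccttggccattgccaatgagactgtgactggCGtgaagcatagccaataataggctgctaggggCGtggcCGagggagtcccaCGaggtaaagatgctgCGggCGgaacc
Cacna1b, chr2:24763103-24763402, minus strand: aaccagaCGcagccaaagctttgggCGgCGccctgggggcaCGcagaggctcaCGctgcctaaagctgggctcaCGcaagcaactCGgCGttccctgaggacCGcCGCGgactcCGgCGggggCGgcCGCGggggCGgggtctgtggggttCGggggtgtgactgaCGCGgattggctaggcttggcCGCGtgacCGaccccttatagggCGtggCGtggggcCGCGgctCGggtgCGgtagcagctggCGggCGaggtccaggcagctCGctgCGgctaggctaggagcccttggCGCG
Kcnc2, chr10:112271023-112271322, plus strand: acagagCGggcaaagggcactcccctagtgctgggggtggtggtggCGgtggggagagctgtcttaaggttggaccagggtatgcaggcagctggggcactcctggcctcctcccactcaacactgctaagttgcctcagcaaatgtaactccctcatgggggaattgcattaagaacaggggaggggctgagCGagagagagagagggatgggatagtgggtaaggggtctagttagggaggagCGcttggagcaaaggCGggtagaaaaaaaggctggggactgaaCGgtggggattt
Kcnd2 and Kcnd3 encode pore subunits of the fast-inactivating A-type potassium current, and their windows hold 26 and 25 CpG dinucleotides. The window of Kcnab2, a cytoplasmic beta subunit of Shaker-type potassium channels, holds 25. That of Cacna1b, the pore of the presynaptic N-type calcium channel, holds 35. The start nearest to the region of Kcnc2, a fast delayed-rectifier subunit prominent in fast-spiking interneurons, has 6. The sixth member was Kcnk1, a leak channel gene, with 10.

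The regions lay on both sides of these starts. Those of Kcnd2 and Kcnab2 were upstream, centred 622 and 436 bp before the start, and that of Kcnma1 was centred 295 bp before it. Downstream regions were centred 492 bp after the start for Kcnk1, 719 bp for Kcnc2, 725 bp for Kcnd3 and 771 bp for Cacna1b. Of the 8, only the Cacnb3 region contained the start itself. Counted by gene, 8 of the 101 members with an annotated start had a region within 1 kb of one (7.92%, 95% Wilson interval 4.07 to 14.9). Over all protein-coding genes with a start the count was 2317 of 17492 (13.2%).

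**Figure D1:**
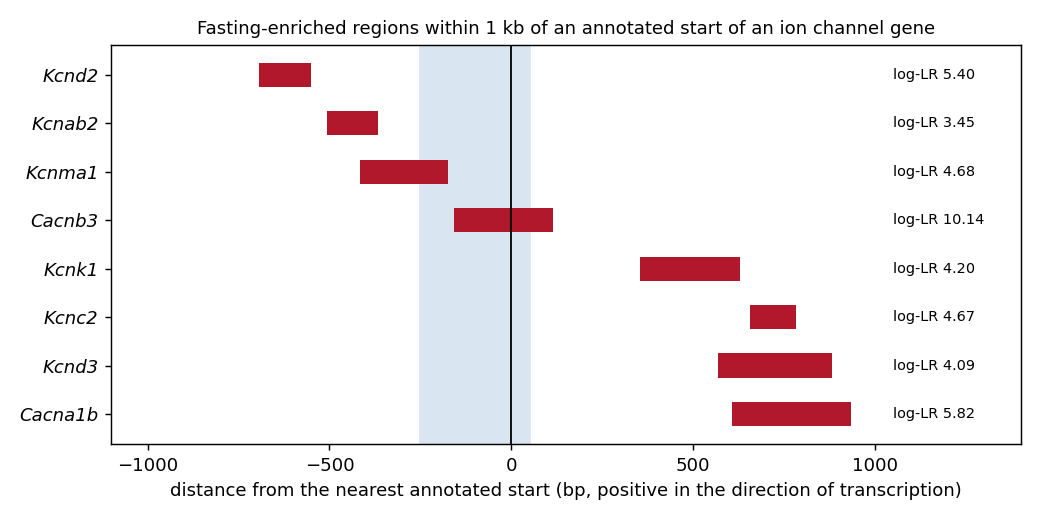
Each bar is the fasting-enriched region of 1 ion channel gene on an axis of distance in bp from the nearest annotated start, positive in the direction of transcription; the shaded band is the promoter window of 250 bases before to 50 after the start. The regions of Kcnma1 and Cacnb3 reach into the band, and only that of Cacnb3 crosses the start.

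Member starts with a region within 1 kb held more CpG dinucleotides at the median than member starts without. The median number of CpG dinucleotides per 300-base window was 25 (range 5 to 36) at 10 member starts with a region within 1 kb, from 8 genes, and 9 at 127 member starts without. Over all protein-coding genes it was 26 at 2694 starts with a region and 10 at 18569 without. Median GC content followed the same order, at 63.3% and 58.0% for members and 65.3% and 55.0% for all genes. The 10 starts include 3 neighbouring starts of Kcnc2 that share most of their bases. Short motifs were searched on both strands as exact letters. The GC box GGGCGG was found in 5 of the 10 windows, and in 73.4% of all protein-coding starts with a region and 46.2% of all protein-coding starts. The TATA box letters TATAAA were in 0 of the 10, in 5.16% of all protein-coding starts with a region and in 12.6% of all starts. The cAMP response element TGACGTCA, the E-box CACGTG and the letters TTCAGCACC of the RE1 repressor element were in 0 of the 10. They were in 3.34%, 10.2% and 0.334% of protein-coding starts with a region, and in 2.23%, 7.84% and 0.414% of all starts. Such matches describe letters and not bound sites.

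At gene ends, ion channel genes held fasting-enriched regions no more often than protein-coding genes at large. A region overlapped the 1 kb either side of a gene end at 10 of 138 members (7.25%, 95% Wilson interval 3.98 to 12.8), against 11.9% of all protein-coding genes, a share that the interval holds. In the gene body the count was 23 of 138 (16.7%, 11.4 to 23.8), against 16.4%. At either position, 27 members had a region (19.6%) and 111 had none, against 18.1% of all protein-coding genes with one. Counts by class below are at either position unless an end or the body is named. The shares to set beside them are those of all protein-coding genes, 18.1% at either position, 11.9% at an end and 16.4% in the body. No difference between a class and these shares was tested. The 27 members held 33 distinct regions, which is 0.393% of the fasted list. None (0) of the 33 lay in a dense array, taken as at least 5 regions no more than 20 kb apart, and 3 were also counted for another protein-coding gene. The region enriched in ad libitum mice lay at 0 of the members.

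**Figure D2:**
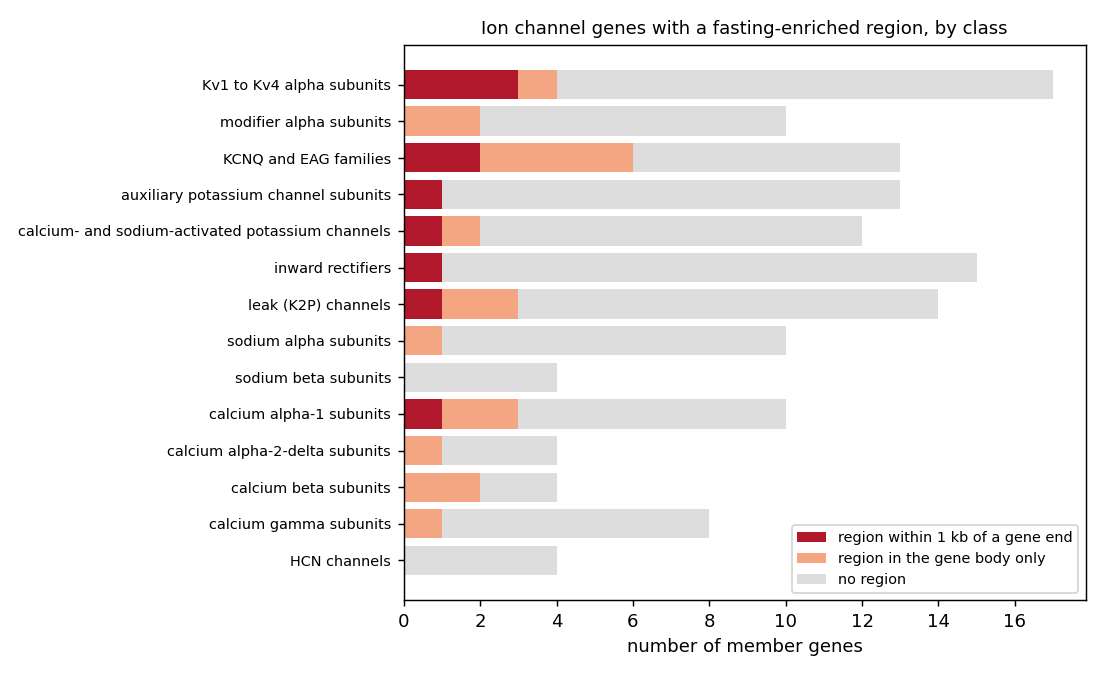
Bars give the number of ion channel genes in each of 14 classes, split into genes with a fasting-enriched region within 1 kb of a gene end, with one in the gene body only, and with none. The KCNQ and EAG families, of median length 280 kb, have the most genes with a region (6 of 13), and sodium beta subunits and HCN channels have 0 of 4 each.

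Among the pore subunits of the classical voltage-gated potassium channels, Kcna to Kcnd, 3 of 17 had a region at a gene end and 4 of 17 had one at any position. The A-type gene Kcnd2 had its region 550 bp outside the gene at its start side, with a log-LR of 5.40. At Kcnd3, the region lay inside the gene, 570 bp from its start side, at a log-LR of 4.09. Kcnb2, a delayed-rectifier gene, had one 204 bp outside its end, at a log-LR of 3.95. The gene Kcnc2 held 2 regions in its body, at log-LR 4.67 and 4.77, 51.2 kb apart. The 3 genes with a region at an end were among the longest of the class, at 437 kb for Kcnb2, 514 kb for Kcnd2 and 222 kb for Kcnd3. The Shaker-type genes Kcna1 to Kcna7 were without one, and their nearest regions were 72.2 kb (Kcna7) to 979 kb (Kcna5) away. Kcna10 had none either, with the nearest at 137 kb.

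The KCNQ and EAG families held regions at 6 of 13 members (46.2%), 2 of them at a gene end, against 18.1% of all protein-coding genes. Their median length was 280 kb, and of all protein-coding genes of 200 kb and over 53.2% had a region. Kcnq3 encodes a subunit of the M-current channel, a brake on repetitive firing, and had a region inside the gene near its high-coordinate end. It lay 550 bp from that end with a log-LR of 4.93, and 2 more regions, at 4.98 and 5.60, stood 631 bp apart 70.9 and 71.7 kb from the other end. Kcnq3 was thus the member with the most regions, 3 over 300 kb. Kcnq5, another M-current subunit gene, had 1 region at a log-LR of 6.00, 190 kb from the nearest end. Kcnh4, an ether-a-go-go family gene of 19.7 kb, had a region at chr11:100745783-100745922 with the highest log-LR of any member, 16.1, placed 247th in the list of 8404. It was 5405 bp from the nearest gene end and 13856 bp from the nearest annotated start of Kcnh4. Kcnh7 had a region at 4.66 and Kcnq1, best known from heart and epithelia, at 4.99.

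Modifier alpha subunits, which form no channel alone and change those they join, had 0 of 10 members with a region at an end and 2 with one in the body. Kcns3 held 2 regions 1038 bp apart, at log-LR 3.83 and 5.22. Kcng2 held 1, at 4.59. Auxiliary potassium subunits had 1 of 13, the region of Kcnab2 with a log-LR of 3.45, the lowest at any member. It lay 366 bp outside Kcnab2 and was also counted for Nphp4, a cilium gene. The Kv channel-interacting gene Kcnip4, the longest member at 1136 kb, had none, and its nearest region was 17.0 kb away.

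Calcium- and sodium-activated potassium channels had a region at 2 of 12 members. Besides Kcnma1, the small-conductance channel gene Kcnn2 held 2 in its body, at log-LR 7.57 and 3.95. Inward rectifiers had 1 of 15. This was Kcnj12, with a region 28 bp outside its start side at a log-LR of 4.32, the closest to a gene end of all. The one start that the promoter table gives for Kcnj12 lies elsewhere, 43268 bp from this region. Leak channels had 3 of 14. Kcnk3, an acid-sensitive leak channel gene of 37.1 kb, had its region 463 bp inside an end at a log-LR of 3.61, while Kcnk1 and Kcnk18 had regions at 4.20 and 5.08 in the body.

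Of 10 alpha and 4 beta subunit genes of sodium channels, 1 had a region, Scn8a, the sodium channel of axon initial segments and nodes. This is 7.14% (Wilson interval 1.27 to 31.5), an interval that holds the 18.1% of all protein-coding genes at either position and the 16.4% in the body. It lay in the body, 1967 bp from the start side and 1185 bp from the nearest annotated start, at a log-LR of 5.64. No sodium channel gene had a region within 1 kb of an end (0 of 14, upper Wilson bound 21.5%), which likewise leaves room for the 11.9% of all genes. The other alpha subunit genes expressed widely in brain neurons had their nearest region 9.43 kb (Scn2a), 209 kb (Scn3a) and 214 kb (Scn1a) away. HCN channel genes, which carry the hyperpolarization-activated pacemaker current, had 0 of 4, with nearest regions 42.2 to 305 kb away.

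Calcium channel genes had a region at 7 of 26 members (26.9%), against 18.1% of all protein-coding genes. Their median length was 104 kb, and of all protein-coding genes of 50 to 200 kb 30.4% had a region. At an end 1 of the 26 had one (3.85%), against 11.9% of all protein-coding genes. That was Cacna1b, whose region lay 656 bp inside the start side at a log-LR of 5.82, the highest value at any member's end. A further region in its body had a log-LR of 4.33. The L-type gene Cacna1d held 1 region at 4.46, also counted for the decapping gene Dcp1a, and the T-type gene Cacna1h held 1 at 3.81. Among alpha-2-delta subunits, which promote surface delivery of the channels, 1 of 4 had a region, Cacna2d4 at 3.77, also counted for Lrtm2. Beta subunits had 2 of 4, Cacnb3 at 10.1 and Cacnb2 at 4.72. Gamma subunits had 1 of 8, Cacng2 (stargazin, an auxiliary subunit of AMPA receptors), with a region at chr15:78066804-78066932 and a log-LR of 10.2, 53.3 kb from the nearest gene end. Its relative Cacng3 had a region at 5.30 that missed the window, 1027 bp from an end.

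**Figure D3:**
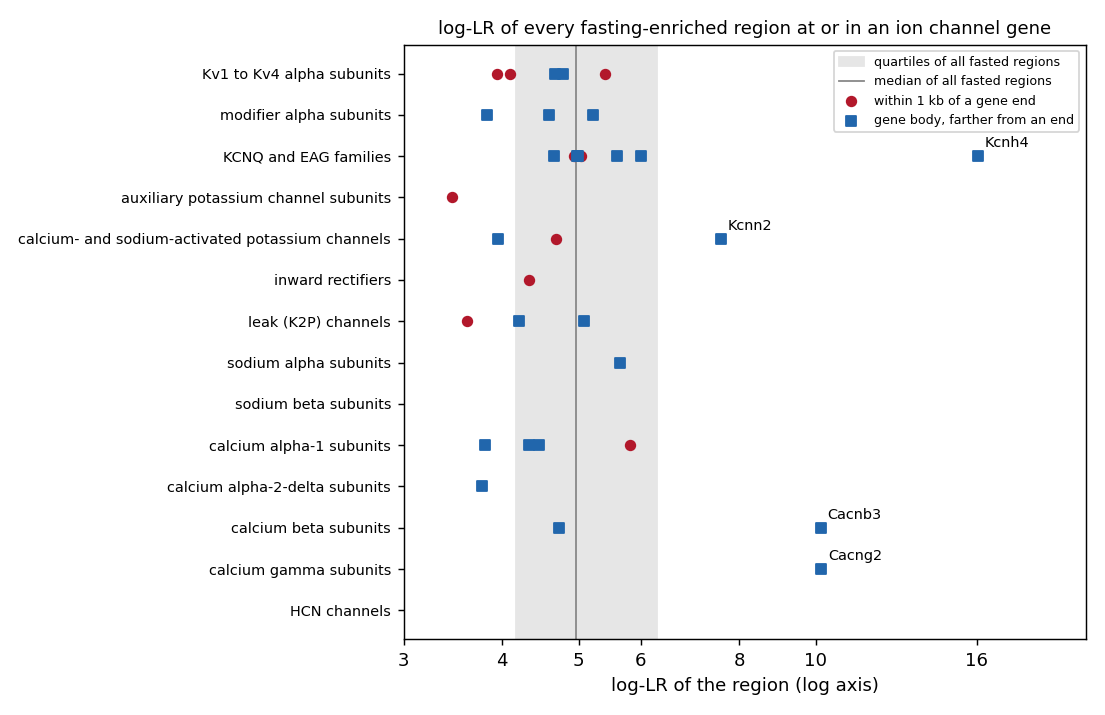
Points are the fasting-enriched regions at or in ion channel genes, placed by class and by log-LR on a log axis; circles lie within 1 kb of a gene end, squares elsewhere in the gene body, and the band and line give the quartiles and median of the 8404 fasted regions. Regions at gene ends stay between 3.45 and 5.82, and 4 body regions, of Kcnn2, Cacnb3, Cacng2 and Kcnh4, lie above the band.

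The regions at channel genes lay near the middle of the list in log-LR. Regions at member gene ends had log-LR values of 3.45 to 5.82 with a median of 4.50 (10 regions), against a median of 4.94 for the 2474 regions at all protein-coding gene ends. Regions in member bodies but not at an end had a median of 4.77 (23 regions, 3.77 to 16.1), against 4.98 for all protein-coding genes (2063 regions). Only 4 of the 33 exceeded the upper quartile of the list, 6.28. Their median width was 185 bp, against 205 bp for the whole list. At ends the 10 regions lay 28 to 656 bp from the end. The members nearest to the 1 kb limit from inside were Cacna1b (656 bp), Kcnd3 (570 bp) and, tied, Kcnq3 and Kcnd2 (550 bp each). Those just outside it were Cacng3 (1027 bp), Kcnh6 (1597 bp, log-LR 5.13) and Kcnk1 (1802 bp). The promoter table gives the strand of 6 of the 10 genes, and in all 6 the region was at the gene end on the start side, for Kcnj12 far from its annotated start. Over all protein-coding genes with a region at an end and a strand, this held for 2017 of 2113 (95.5%).

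The share of members with a region was larger among longer genes. Ion channel genes are long, with a median of 42.6 kb against 17.2 kb for all protein-coding genes. Of the 72 members under 50 kb, 1 had a region at an end (1.39%, Wilson interval 0.246 to 7.46), Kcnk3, against 10.5% of all protein-coding genes of that length. The counts were 4 of 39 (10.3%) from 50 to 200 kb, against 17.2%, and 5 of 27 (18.5%, 8.18 to 36.7) at 200 kb and over, against 14.7%. In the gene body the shares were 6.94% (5 genes), 23.1% (9) and 33.3% (9), against 11.5%, 28.5% and 52.0% of all protein-coding genes. In each length class fewer members than genes at large thus had a body region, although the overall shares were alike, and only at the longest did the share at an end exceed that of all genes. No test was made of these differences, and the length classes rest on few members with a region.

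Regions were also counted per length. Member bodies held 29 regions over 17.3 Mb, or 1.67 per Mb, against 4.33 per Mb over all protein-coding genes. The pooled values mix genes of different length. By length class the density was 3.67 against 8.79 per Mb under 50 kb, 2.97 against 3.74 from 50 to 200 kb, and 1.01 against 2.21 at 200 kb and over. Away from the ends the order differed by length. Regions more than 1 kb inside both ends were found in 19 members (13.8%) against 7.79% of all protein-coding genes. Within length classes they were in 5.56% against 3.57% under 50 kb, 20.5% against 16.4% from 50 to 200 kb, and 25.9% (Wilson interval 13.2 to 44.7) against 45.5% at 200 kb and over. Of the 27 longest members, 16 had no region anywhere, and neither had 463 of all 990 protein-coding genes of 200 kb and over. Among the 16 were the alpha-2-delta gene Cacna2d3 (818 kb), the L-type calcium channel gene Cacna1c (610 kb) and the R-type gene Cacna1e (494 kb). These genes were picked for their length.

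**Figure D4:**
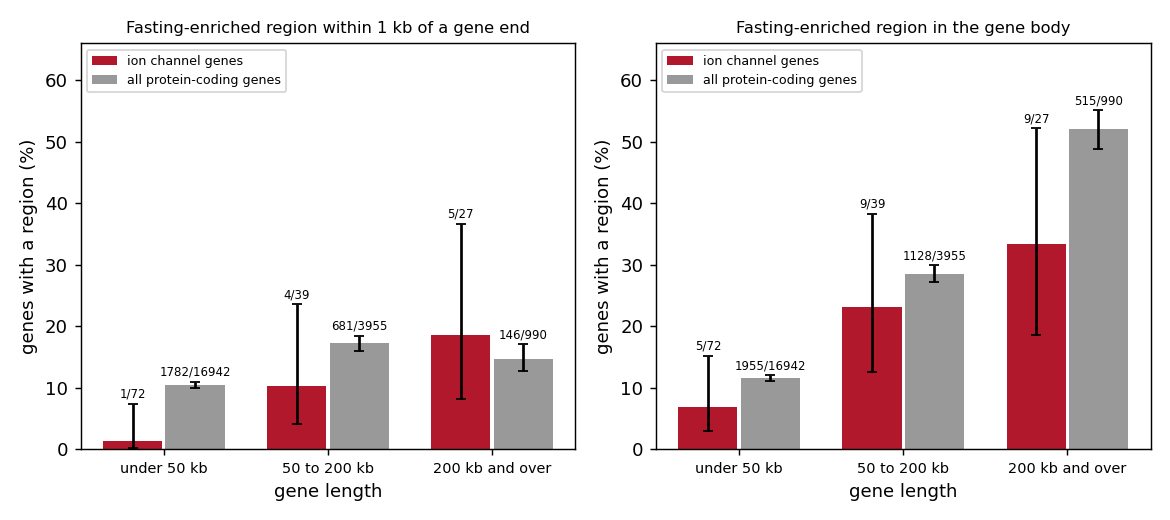
Bars give the percentage of ion channel genes and of all protein-coding genes with a fasting-enriched region within 1 kb of a gene end (left) or in the gene body (right), by gene length, with 95% Wilson intervals and counts above the bars. Under 50 kb, 1 of 72 ion channel genes has a region at an end, and at 200 kb and over 9 of 27 have one in the body against 515 of 990 protein-coding genes.

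Distance to the nearest region varied widely within the classes. The median over the 138 members was 64.7 kb, close to the 69.2 kb of all protein-coding genes, and the largest was 979 kb. By class the median ran from 1.60 kb in the KCNQ and EAG families and 10.2 kb in calcium beta subunits to 182 kb in sodium alpha, 197 kb in calcium gamma and 205 kb in sodium beta subunits. Classes of 4 to 17 genes with such ranges overlap one another. On chromosome X, 3 members (Kcnd1, Kcne1l and Cacna1f) had 0 regions. Few protein-coding genes on the sex chromosomes had one at all. Of the 3967 protein-coding genes with a region, 3916 were on autosomes, as were 20665 of all 21887. The 0 of 3 is therefore no result about ion channel genes.

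**Figure D5:**
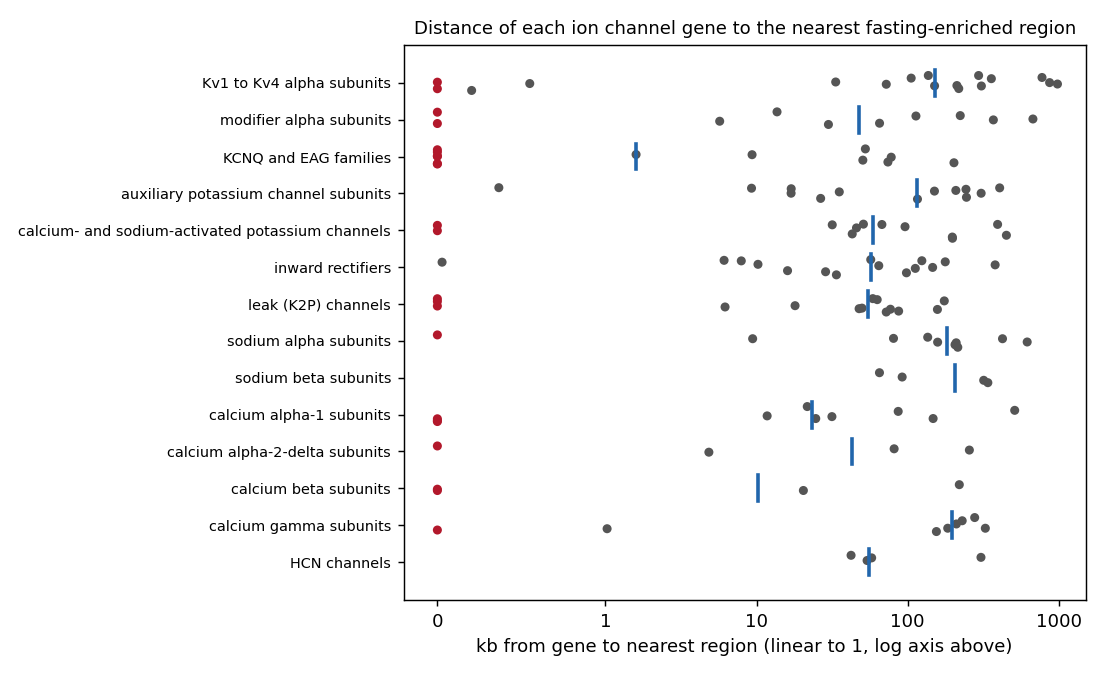
Points are ion channel genes by class, on an axis of distance in kb to the nearest fasting-enriched region (linear to 1, log above), with red points for genes that a region overlaps and blue bars for class medians. Distances reach 979 kb, and the KCNQ and EAG families have the smallest class median, 1.60 kb.

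Proteins that anchor, modulate or work beside these channels were counted from a separate list of 62 genes. Of these, 16 had a region at a gene end (25.8%, Wilson interval 16.6 to 37.9) and 28 had one in the body (45.2%), against 11.9% and 16.4% of all protein-coding genes. These genes are long, with a median of 74.2 kb. Of all protein-coding genes of 50 to 200 kb, 17.2% had a region at an end, which the interval for ends holds. In the body 28.5% of them had one, below the partners' body interval of 33.4 to 57.5. The list also holds genes of 200 kb and over, a length at which 52.0% of all protein-coding genes had a body region. The difference was not tested. Counted per length, partner bodies held 43 regions over 12.9 Mb, or 3.33 per Mb, below the 4.33 per Mb of all protein-coding genes. These pooled values mix genes of different length, and the list was chosen with earlier results of these data known. The spectrin gene Sptbn1, part of the membrane skeleton, had the highest log-LR at an end, 9.56, and held 3 regions there. Cntn2, an adhesion gene of the juxtaparanode where Kcna channels cluster, followed at 9.24. Lrrc26, an auxiliary subunit of the Kcnma1 channel, had one at 9.18, which was also counted for Grin1. Amigo1, a partner of Kcnb channels, had one at 8.58, the chloride transporter gene Clcn3 at 8.14, and the ubiquitin ligase gene Nedd4 at 7.16. Lower values were found at the sodium leak channel gene Nalcn (6.22), the kinase gene Camk2b (5.99), the calmodulin gene Calm3 (4.94) and Adam23 (4.86).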

How the data were processed

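Sonicated cortical chromatin was precipitated with an antibody to the H3K9 mark, per the labels' protocols. The submitters' processing notes name Bowtie2, MACS2 and mm10 without roles. The authors deposited 2 region lists whose only value, per the file headers, is the log-LR. This deposited log-LR serves as a score for each region, with pooling, scaling, log base and cutoff not given in the sources used here. Starts were read as counted from 0, which gives a smallest width of 120 bp, and are printed counted from 1.

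The gene positions are RefSeq's for GRCm38.p6, without the 13 mitochondrial genes, and its promoter table gave starts and sequences. A region was counted for a gene when any base overlapped. Shares have 95% Wilson intervals, which cover counting error only. The overlap step was tested on simulated regions. Members and lists were chosen with earlier results of these data known. Named genes were every member with a region at an end, up to 3 members per class with the most body regions, the 3 of highest log-LR, the 3 nearest on each side of the window limit, and up to 10 listed partners by log-LR at an end. Some genes that this rule takes are left out here. Genes named for lacking a region, Kcnh7, Kcnq1, gene clusters, non-coding genes, motifs and promoter features were chosen after the data were seen. The alternatives changed the window, the overlap rule, the log-LR limit, arrays, merging and shared regions. Computation used Python 3.11.15 with pandas 2.3.3, numpy 2.4.6, matplotlib 3.10.9 and scipy 1.17.1.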

Additional observations from a re-analysis of the deposited data

How the results depend on the processing

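The number of members with a region at a gene end, 10 as reported, was 6 with a window of 500 bp (4.35%, against 9.55% of all protein-coding genes) and 15 with 3 kb (10.9% against 14.7%). At a log-LR of at least 5 it was 3, and 1292 for all protein-coding genes (2.17% and 5.90%). At a limit of 10 it was 0 and 40. In the gene body, a limit of 5 left 11 members, each with 1 region (11 regions), and 1925 of all genes, and a limit of 10 left 3 members with 3 regions (Kcnh4, Cacng2 and Cacnb3) and 124 of all genes. These are 7.97% of members against 8.80% of all genes at 5, and 2.17% against 0.567% at 10, where the members' share was the higher. Such limits lower every count by their construction. Regions more than 1 kb inside both ends were in 19 members and 1704 of all genes, so that setting lowered the background far more than the members' count. Centres in place of overlaps, no arrays and merging kept each count at ends and in bodies within 1.5 times of its reported value, as did regions touching no other gene and annotated starts only, which were run at ends alone. In the windows of 500 bp, 1 kb and 3 kb and at limits of 5 and 10, the members' share at gene ends was below that of all protein-coding genes. No paired analysis was possible because single libraries have no values in either list, and replicates could not be left out for the same reason.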

Other observations

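Long non-coding RNA genes stood within 1 kb of the regions of 6 ion channel genes, at 6 of the 33 member regions. The same was not counted for the other fasted regions, so no background share stands beside this count. Inside Kcnq1, the region at chr7:143295698-143295846 lay within Kcnq1ot1, the imprinted antisense RNA of that locus, 701 bp from its annotated start and 131 kb from the nearest end of Kcnq1. At Kcnd3 the region lay within Kcnd3os, 184 bp from the annotated start of that RNA and 570 bp from the start of Kcnd3. The region of Kcnk3 was 14 bp from the annotated start of Gm9899, and that of Kcnma1 was 370 bp from the annotated start of 4930519K11Rik. A region of Kcnq3 lay inside Gm27242, and one of Kcnn2 was 244 bp from an end of Gm32139. The list assigns no region to a transcript, so these regions can be counted for either gene.

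Groups of neighbouring ion channel genes were also counted. With gaps of at most 250 kb, 6 groups of 3 or more members contained 19 genes, and 0 of these had a region in the body or at an end, where 18.1% of all protein-coding genes have one. Neighbours in smaller groups could hold one, as Cacna2d4 next to Cacna1c did. The groups of 3 or more included Scn1a, Scn9a and Scn7a over 0.514 Mb and Kcna3, Kcna2, Kcna10 and Kcnc4 over 0.424 Mb. Others were Cacng1, Cacng4 and Cacng5 over 0.212 Mb, and Kcna5, Kcna1 and Kcna6 over 0.208 Mb. A further group was Cacng7, Cacng8 and Cacng6 over 0.104 Mb. One region, between genes, lay in the span of the Kcna3 group and 0 in the other 5 spans.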
